A study of Mus musculus with 686 samples.

Results

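The liver libraries of ground control mice were compared with those of 12 other tissues in a small RNA sequencing study of spaceflight. The set holds every library labelled liver among the ground controls of the live animal return group (LAR), which are 19 of the 234 ground control LAR libraries of 13 tissues and of the 686 libraries of the series. All mice were BALB/cAnNTac females of 3 or 8 months. In the habitat ground control arm (HGC, 9 liver libraries) the mice lived at double density in the habitat units used for flight, with temperature, humidity and carbon dioxide set to the values recorded in flight. In the vivarium ground control arm (VGC, 10 liver libraries) they lived 4 to a cage in a standard vivarium. The 215 libraries of the other tissues came from brown (BAT, n = 20), gonadal (GAT, n = 20), mesenteric (MAT, n = 19) and subcutaneous adipose tissue (SCAT, n = 20), brain (n = 8, all of 3 months), diaphragm (n = 20), heart (n = 16), kidney (n = 19), lung (n = 20), pancreas (n = 18), spleen (n = 15) and thymus (n = 20). LAR mice were anaesthetised, with gas by the labels and with ketamine/xylazine by the study's methods, and bled by cardiac puncture, and the fresh liver was divided into lobes and snap frozen, but the labels do not say which lobe was sequenced. These are bulk samples, in which fewer cells of a type and less RNA per cell cannot be told apart.

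Hepatocytes make up most of the mass of the liver, beside endothelial cells, stellate cells, bile duct cells, macrophages and blood. A microRNA (miRNA) is cut from a hairpin precursor as a 5′ (-5p) or 3′ (-3p) arm and pairs with target messages mainly through its seed, bases 2 to 8. miR-122 is the classical miRNA of hepatocytes, where it is known for its part in cholesterol and lipid metabolism, and miR-192, miR-194 and miR-802 are known from epithelia that carry hepatocyte nuclear factors. Besides miRNAs, the study counted fragments of transfer RNA (tRNA), ribosomal RNA (rRNA), spliceosomal small nuclear RNA (snRNA), small nucleolar RNA (snoRNA), PIWI-interacting RNA (piRNA) and long non-coding RNA (lncRNA). Levels are given as reads-per-million values (RPM) of the counts of a library in its own class, so that a level is a share within a class, and for groups of libraries the lowest, median and highest values are given.

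The miRNA profile went against the label in 3 liver libraries. The libraries of 11 sequencing pools had been found in an earlier look at these data to carry the profiles of other tissues more often than those of the rest, and 4 of the 19 liver libraries were made in these pools. In 3 of the 4, HGC 12, VGC 12 and VGC 14, miR-122-5p held 0.0396%, 0.0158% and 0.0141% of the miRNA counts, against 16.2% to 42.6% in the other 16 liver libraries. By the rank order of their miRNAs, the library labelled liver HGC 12 was most like spleen (Spearman's rho 0.948, against 0.859 with the other livers), VGC 12 most like thymus (0.931 against 0.833) and VGC 14 most like kidney (0.945 against 0.870). The fourth, VGC 1, held 35.6% miR-122-5p and was most like the other livers (0.943). The results are therefore given over all 19 libraries and again without the 11 pools, which leaves 15 liver libraries and 169 of other tissues. No library was relabelled. In the other direction, 10 of 215 libraries labelled as another tissue held more than 1% miR-122-5p, led by GAT VGC 4 (35.0%), GAT HGC 5 (18.3%) and Kidney VGC 4 (15.2%), and 6 of 169 did without the pools.

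**Figure D1:**
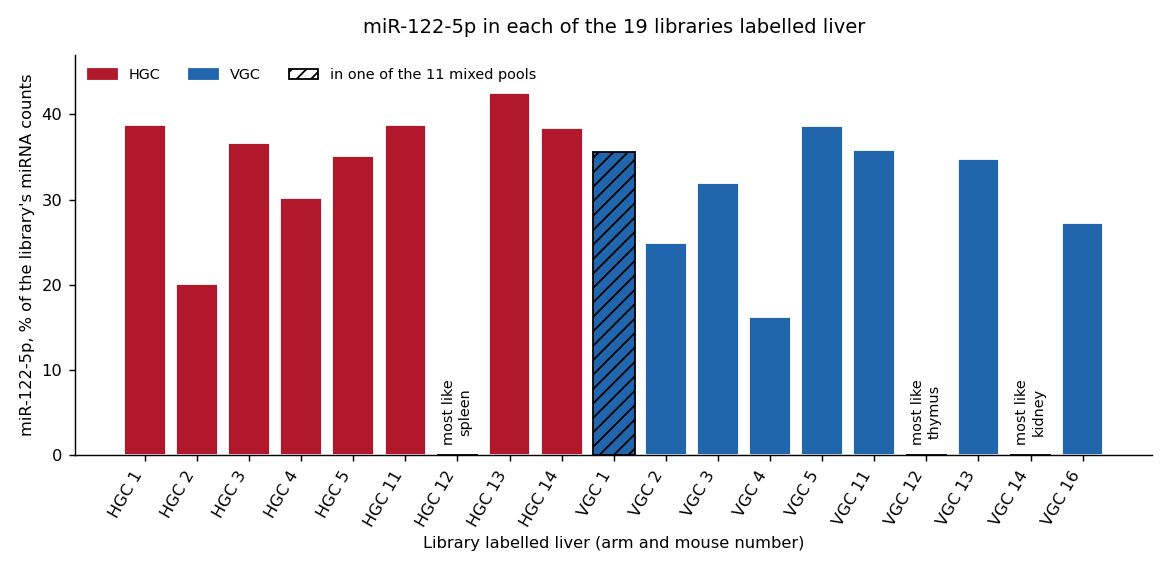
Share of miRNA counts held by miR-122-5p (percent, vertical axis) in each of the 19 liver libraries, HGC in red and VGC in blue, hatched where the library was made in one of the 11 mixed pools. The 3 hatched bars near 0 carry the name of the tissue they were most like, while the other 16 stand between 16.2% and 42.6%.

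Counts over the 7 classes, given in megareads (M), ranged from 26.9 to 52.1 M in the liver libraries (median 37.8 M) and from 16.6 to 173.0 M in the others. Of these, 2.25 to 8.33 M were miRNA counts in liver (median 4.89 M), so that a count of 0 in a median liver library allowed a level of up to 0.614 RPM, a limit of 3 counts that covers counting error only. The markers of other cell types are given below beside the results they touch.

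The mature sequences of the miRNAs on which the liver profile turned are shown 5′ to 3′, as RefSeq gives them on GRCm38.p6, with the seed in capitals. miR-192-5p (chr19:6264857-6264877, plus strand) and miR-215-5p (chr1:185313610-185313630, plus strand) share the seed UGACCUA, which no other miRNA of the reference table holds, and differ by C1A, A12U and C20A, counted from the 5′ end of miR-192-5p. miR-194-5p is made from genes beside both of them, at chr19:6264658-6264679 and chr1:185313325-185313346.

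miR-192-5p: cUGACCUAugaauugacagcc
miR-215-5p: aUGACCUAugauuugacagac
miR-192-3p: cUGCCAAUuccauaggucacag
miR-194-5p: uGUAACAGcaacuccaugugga

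The second marker of liver, miR-802-5p, lies between genes at chr16:93369737-93369758 on the plus strand. miR-101b-3p lies in an intron of Rcl1 (chr19:29135338-29135356, plus strand). Its relative miR-101a-3p (chr4:101346957-101346977, minus strand) matches it from the second base of miR-101b-3p on with a single difference, A16G counted from the 5′ end of miR-101a-3p, but the shifted start gives them different seeds. miR-31-5p (chr4:88910614-88910635) and miR-31-3p (chr4:88910577-88910599) come from one hairpin on the minus strand in an exon of the lincRNA AL805899.1, and miR-22-3p (chr11:75463772-75463793, plus strand) from an exon of Mir22hg.

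miR-802-5p: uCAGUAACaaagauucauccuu
miR-101b-3p: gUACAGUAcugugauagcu
miR-101a-3p: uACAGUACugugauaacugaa
miR-31-5p: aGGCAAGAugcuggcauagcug
miR-31-3p: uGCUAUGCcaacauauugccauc
miR-22-3p: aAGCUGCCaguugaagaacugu

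Among the miRNAs lower in liver, let-7e-5p (chr17:17830366-17830387, plus strand, in an intron of Spaca6) shares its seed GAGGUAG with let-7a-5p (chr13:48538239-48538260, minus strand), one of the most abundant miRNAs of liver, and with 11 miRNAs of the table in all. miR-323-3p (chr12:109712558-109712578), miR-410-3p (chr12:109743764-109743784, in an exon of Mirg) and miR-667-3p (chr12:109720061-109720083) stand for the imprinted Dlk1-Dio3 region of chromosome 12, all on the plus strand.

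let-7a-5p: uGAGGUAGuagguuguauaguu
let-7e-5p: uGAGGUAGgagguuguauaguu
miR-323-3p: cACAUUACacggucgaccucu
miR-410-3p: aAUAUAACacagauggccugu
miR-667-3p: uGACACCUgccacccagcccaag

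The most abundant miRNA of liver was miR-122-5p, with 141, 347541 and 425679 RPM in the lowest, median and highest library. miR-192-5p followed with a median of 83045 RPM and let-7a-5p with 44959 RPM, and these 3 medians add up to 47.6% of miRNA counts. Next came miR-26a-5p (44681 RPM), let-7f-5p (36088 RPM), miR-22-3p (34154 RPM), let-7c-5p (31662 RPM), the red cell miRNA miR-451a (30126 RPM), let-7g-5p (26967 RPM) and miR-378a-3p (20787 RPM). Of the 10, only miR-122-5p, miR-192-5p and miR-22-3p had a median above those of all 12 other tissues. let-7c-5p had a median below all 12, and miR-378a-3p, made from the gene of the coactivator Ppargc1b, reached 211170 RPM in BAT. Of the 1964 miRNAs listed, 801 had a liver median above 0.

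Liver differed from each single tissue in a large share of the 1300 miRNAs tested, at a Benjamini-Hochberg adjusted p under 0.05 in the edgeR quasi-likelihood test and a log2 fold change beyond 1. The fewest differed from pancreas (400, 30.8%) and kidney (405, 31.2%). MAT followed with 468 (36.0%), BAT with 520 (40.0%), heart with 539 (41.5%), diaphragm with 595 (45.8%), lung with 607 (46.7%), SCAT with 628 (48.3%), spleen with 630 (48.5%) and GAT with 637 (49.0%). The most differed from thymus (664, 51.1%) and brain (750, 57.7%). In each of the 12 comparisons more miRNAs were lower than higher in liver, from 205 higher and 390 lower against diaphragm to 85 higher and 579 lower against thymus. The median miRNA was itself lower in liver, by a log2 fold change from -0.30 (diaphragm) to -1.003 (thymus), and with TMM factors this median ran from -0.47 (heart) to 0.16 (pancreas). Each level is a share of miRNA counts, of which miR-122-5p alone took 34.8% in the median liver library.

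**Figure D2:**
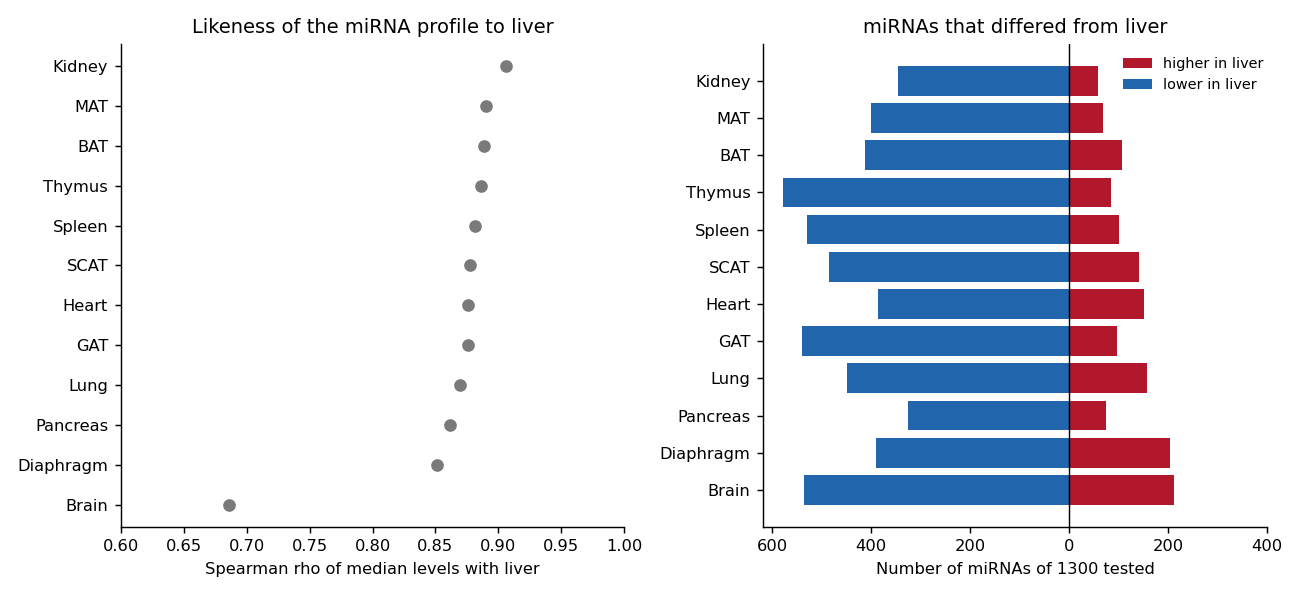
Likeness of each tissue to liver (Spearman's rho of median miRNA levels) and the number of the 1300 tested miRNAs higher or lower in liver than in that tissue. Kidney was most like liver (0.906) and brain least (0.686), and lower calls outnumber higher calls in every tissue.

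Over median levels, Spearman's rho with liver across the 1300 miRNAs was 0.906 for kidney, 0.890 for MAT, 0.888 for BAT and 0.886 for thymus, and 0.686 for brain, with the other tissues between 0.851 and 0.881. Kidney also led for lncRNAs (0.917), piRNAs (0.956) and snoRNAs (0.986), while spleen led for tRNAs (0.990). These values describe the order of features that share libraries and depth, and neighbouring tissues were not tested against each other.

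A miRNA was called higher in liver when it passed both thresholds against each of the 12 tissues. Of 1300 miRNAs, 19 were higher (1.46%) and 19 lower (1.46%) in liver than in all 12. Without the 11 pools 21 of 1277 were higher (1.64%) and 43 lower (3.37%), and 18 of the 19 higher but 13 of the 19 lower miRNAs were called in both. With TMM factors the split over all libraries was 30 higher and 8 lower, and with miR-122 left out of the total it was 27 higher and 9 lower. With the total of all 7 classes as library size it was 25 higher and 0 lower, so that every lower call was lost. The 19 higher miRNAs were not all abundant. For 12 the median liver library held more than 10 counts, and for 4 it held 3 counts or fewer, and of the 19 lower miRNAs 11 had 3 counts or fewer.

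**Figure D3:**
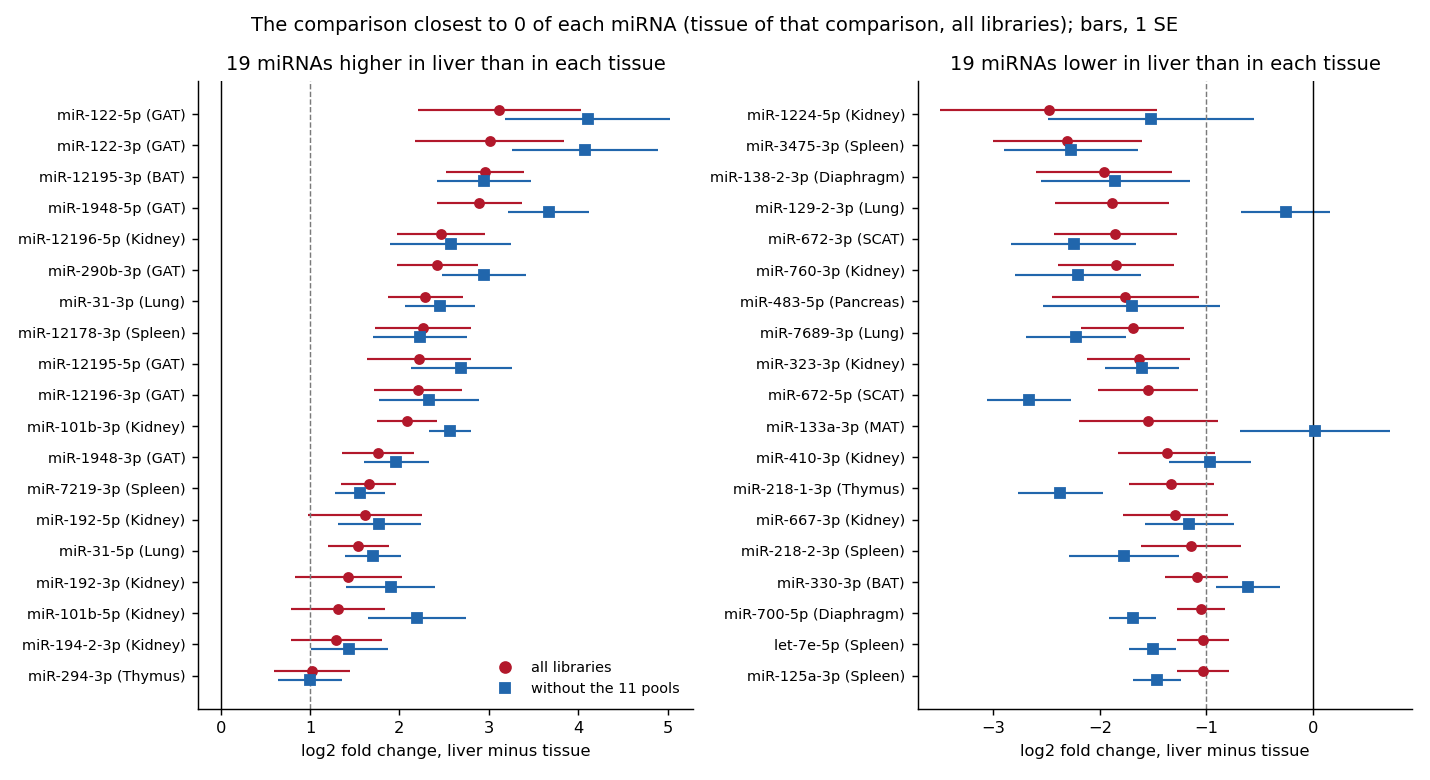
For the 19 miRNAs called higher and the 19 called lower in liver than in all 12 tissues, the log2 fold change against the tissue that came closest, with bars of 1 standard error, over all libraries (red circles) and without the 11 pools (blue squares). The dashed line marks a log2 fold change of 1 in size, and the point of miR-133a-3p without the pools lies near 0 (0.02).

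Both arms of the miR-122 hairpin were higher in liver than everywhere else. miR-122-5p had medians of 621 RPM in pancreas, 595 RPM in SCAT and 49.3 RPM in brain, against 347541 RPM in liver. The closest tissue was GAT, with a log2 fold change of 3.12 (SE 0.912, adjusted p = 0.00194), and the farthest was brain, with 11.37. No other tissue, GAT included, had a median above the 621 RPM of pancreas. The fitted mean of GAT holds VGC 4, HGC 5 and VGC 2, with 35.0%, 18.3% and 9.68% miR-122-5p. Of these, HGC 5 and VGC 2 lie outside the pools, and the fold change without them was not tested. Without the pools the liver libraries held 162268, 351798 and 425679 RPM, and the difference from GAT was 4.11 (SE 0.925, adjusted p = 4.27e-05). Of the 215 other libraries 1 lay above the liver median, GAT VGC 4 with 350290 RPM, and without the pools none of 169 did, although 1 of them (GAT HGC 5) lay above the lowest liver. The passenger arm miR-122-3p gave 4.68, 3737 and 10928 RPM in liver against a highest other median of 17.9 RPM in pancreas, and its closest log2 fold change was 3.01 (GAT, adjusted p = 0.00101). The adjusted p-values here and below are those of edgeR's quasi-likelihood test.

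**Figure D4:**
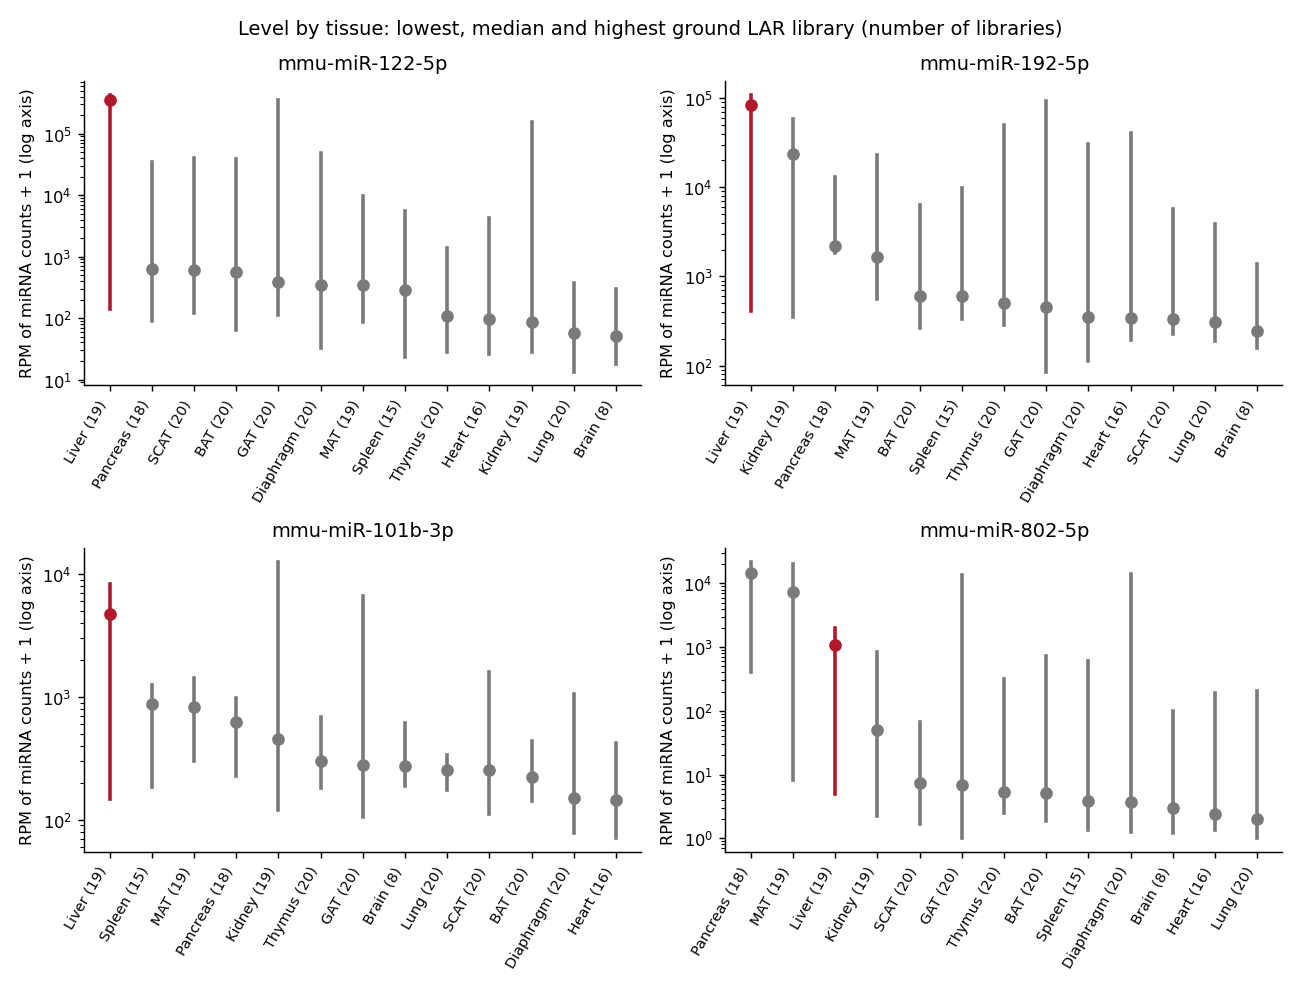
Levels of miR-122-5p, miR-192-5p, miR-101b-3p and miR-802-5p in the 13 tissues, as RPM + 1 on a log axis, with the lowest, median and highest library of each tissue over all libraries and liver in red. The median of liver is the highest for the first 3 miRNAs, while pancreas and MAT lie above liver for miR-802-5p.

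The miR-192/194/215 list had 6 members, of which 3 were called higher over all libraries and 4 without the pools, beside 1.46% and 1.64% of all miRNAs, with a median log2 fold change of 4.46 and 5.36 (all miRNAs tested -0.61 and -0.90). Kidney came closest for miR-192-5p, miR-192-3p, miR-194-5p and miR-194-2-3p. miR-192-5p held 405, 83045 and 108828 RPM in liver and 23327 RPM in the median kidney, followed by pancreas at 2198 RPM. Its log2 fold change against kidney was 1.61 (SE 0.636, adjusted p = 0.0343), and 1.78 without the pools (SE 0.461, adjusted p = 0.000592), where the 15 livers started at 59368 RPM and none of 169 other libraries lay above that value. The difference from kidney was no longer called with the total of all 7 classes as library size (1.71), with the sequencing plate as a term (1.17) or in the ground controls of the terminal group (TERM, 1.19), other mice whose carcasses were frozen whole and of which 223 libraries, 19 of liver, were used.

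The other arm, miR-192-3p, stood at 5.79, 841 and 1510 RPM in liver and 252 RPM in kidney (log2 fold change 1.43, adjusted p = 0.0458). miR-194-5p stood at 61.9, 11395 and 21876 RPM in liver and 4545 RPM in kidney. It was higher in liver than in 11 tissues, and against kidney its log2 fold change of 1.17 (SE 0.512) had an adjusted p of 0.0608, while without the pools it was called in all 12 (1.51, adjusted p = 0.000257). miR-194-2-3p was scarce, with 0.498, 30.0 and 47.2 RPM in liver and 10.5 RPM in kidney (1.29, adjusted p = 0.0355). VGC 14 is the liver library most like kidney, and the summed level of this list was 43323 RPM there, against 1219 RPM in HGC 12 and 483 RPM in VGC 12.

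miR-215-5p, which carries the seed of miR-192-5p, did not follow it. It stood at 1.87, 10.2 and 16.8 RPM in liver, below the medians of 4 tissues, and at 69.7 RPM in MAT with a highest library of 3059 RPM. Against MAT its log2 fold change was -5.35 (adjusted p = 2.37e-09). Liver was above 3 tissues and below 2 over all libraries, and above 6 and below 2 without the pools. miR-215-3p had a liver median of 0.161 RPM, under the limit set by 3 counts, and was lower than in 5 tissues.

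miR-802-5p, the second marker named for liver, was not highest there. Liver held 4.01, 1066 and 1985 RPM, pancreas a median of 14512 RPM and MAT 7278 RPM. Over all libraries liver was above 8 tissues and below 2, with log2 fold changes from -3.69 (pancreas, adjusted p = 0.00189) to 6.56 (lung). Without the pools it was above 10 tissues and below 2, and the 12 adjusted p-values were at most 0.000549. In the 16 libraries with over 1% miR-122-5p the lowest level was 835 RPM, and 34 of 215 other libraries lay above the liver median. Its partner miR-802-3p (0.445, 237 and 472 RPM) followed the same order, with 1857 RPM in pancreas and 1059 RPM in MAT, and was above 8 tissues and below 1.

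miR-101b-3p, a member of a family known to restrain Polycomb proteins, held 147, 4773 and 8316 RPM in liver, while spleen and MAT came next at 876 and 828 RPM. Its closest log2 fold change was 2.09 (kidney, SE 0.337, adjusted p = 6.72e-08) and its farthest 4.80 (heart). Without the pools spleen was closest at 2.57, and none of 169 libraries lay above the lowest liver, while over all libraries Kidney VGC 4, in a mixed pool, held 12677 RPM. The relative miR-101a-3p, from another chromosome, had a liver median of 1918 RPM against 2795 RPM in MAT and was not called. The rare arm miR-101b-5p was also higher (median 2.48 RPM, closest log2 fold change 1.31).

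miR-31-5p held 191, 3169 and 5386 RPM in liver and 1154 RPM in lung, the closest tissue (log2 fold change 1.54, SE 0.341, adjusted p = 4.5e-05). miR-31-3p held 7.72, 210 and 326 RPM against 36.2 RPM in lung (2.29, SE 0.421, adjusted p = 9.86e-07), so both arms of this hairpin were called. miR-31-5p had been placed in a list of 9 miRNAs of bile duct and other epithelium and was the only one of it called, beside 1.46% of all miRNAs called higher. The median log2 fold change of the list was -0.79, and -2.35 without the pools (all miRNAs -0.61 and -0.90). miR-203-3p had a liver median of 1163.5 RPM, with 1794 RPM in MAT as the highest other median, and a median log2 fold change over the 12 tissues of 0.75, and 1.06 without the pools. miR-205-5p (39.2 RPM, 21408 RPM in thymus) had one of 0.96 with a highest liver library of 24537 RPM, and of -1.48 without the pools, where the highest liver held 1164 RPM. It was below 0 in both sets for the remaining 6, among them miR-200b-3p, miR-200c-3p and miR-141-3p, with liver medians of 204, 167 and 37.8 RPM against 25319, 42295 and 7059 RPM in pancreas. The sum of this list was 5688 RPM in the median liver, and 35400 and 36801 RPM in VGC 12 and VGC 14. miR-22-3p, a broadly expressed miRNA, held 5825, 34154 and 121384 RPM in liver and 22282 RPM in heart. It was higher than in 10 tissues (closest log2 fold change 0.92, SE 0.207) and, without the pools, in all 12 (1.01), though not with the mouse as a block (0.83). miR-7219-3p completed the group with 12.0, 64.1 and 113 RPM against 21.7 RPM in spleen (1.65, adjusted p = 1.39e-06), and none of 215 other libraries reached its liver median.

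The remaining higher miRNAs were rare. miR-1948-5p (median 5.58 RPM, above 0 in 17 of 19 livers) and miR-1948-3p (11.7 RPM) exceeded all tissue medians, the highest of which were 0.222 RPM in kidney and 2.58 RPM in GAT. miR-290b-3p and miR-294-3p, of a cluster known from embryonic stem cells, had liver medians of 2.33 and 2.11 RPM. miR-12195-3p, miR-12195-5p, miR-12196-5p, miR-12196-3p and miR-12178-3p had liver medians between 0.208 and 0.728 RPM, which is 1 to 4 counts in the median liver library, while all 12 tissue medians were 0. Their highest liver counts lay between 7 and 15, so that their fold changes rest on few reads, and 4 of the 5 were no longer called by DESeq2 and none by the Wilcoxon rank-sum test. The 3 miRNAs called without the pools alone were miR-22-3p, miR-194-5p and miR-12206-5p (0, 8.69 and 21.8 RPM, 1.42 RPM in kidney, closest log2 fold change 0.70 over all libraries and 1.77 without the pools), and miR-294-3p was called with the pools alone (1.021 and 0.996).

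The counts of 15 lists of miRNAs stand beside 1.46% of all miRNAs called higher and 1.46% lower over all libraries, and 1.64% and 3.37% without the pools. The list on lipid and glucose metabolism had 15 members, and none of them was called over all libraries and 1, miR-22-3p, without the pools. Its median log2 fold change was 0.73 and 0.92 (all miRNAs -0.61 and -0.90). miR-21a-5p (11913 RPM, highest other median 7042 RPM in spleen), miR-130a-3p (11769 RPM, 6865 RPM in MAT) and miR-107-3p (1773 RPM, 1453 RPM in kidney) had their highest medians in liver without passing against all 12. The cholesterol-linked miR-33-5p (147 RPM, 298 RPM in spleen) and miR-148a-3p (2169 RPM, 24649 RPM in pancreas) did not pass either. Negative median log2 fold changes over all libraries were those of miR-378a-3p (-1.08), miR-378a-5p (-0.68), miR-103-3p (-0.41), miR-34a-5p (-0.28) and miR-223-3p (-0.05). Of 19 members of miR-101, miR-30 and let-7, 1 was higher and 1 lower in both sets of libraries. The 6 members of miR-193/365 gave no call, although miR-193a-3p held 7797 RPM in liver and 10498 RPM in pancreas, the highest other median.

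Lists of other cell types in the liver gave the following levels. The summed level of 6 miRNAs of blood cells and macrophages had a liver median of 2446 RPM, below the medians of all 12 other tissues (2746 RPM in kidney to 90643 RPM in spleen), and ranged from 1674 to 83371 RPM over all libraries and to 4198 RPM without the pools. Red cell miRNAs summed to 30372 RPM, below 5 tissues, and endothelial miRNAs to 11452 RPM, against 53908 RPM in lung. Stellate and smooth muscle cell miRNAs summed to 22561 RPM, against 91155 RPM in MAT. None of these 4 lists had a member called in either direction over all libraries. miRNAs of neurons (296 RPM, 222486 RPM in brain) and of exocrine pancreas (5.40 RPM, 35994 RPM in pancreas) had no member called. The sum of the neuron list in liver was above the medians of 6 tissues and below those of the other 6. Most of it was miR-137-3p, with 202 RPM in liver, 1475 RPM in brain and 1.59 RPM in diaphragm, the lowest median. Its median log2 fold change over the 12 tissues was 3.25, and that of miR-219a-5p was 1.17. The other members had negative values over all libraries, from -0.13 (miR-128-3p) to -2.72 (miR-219a-2-3p). The median of the neuron list was -1.75, and -0.68 without the pools (all miRNAs -0.61 and -0.90). The part of these cells in any result above was not tested.

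Among miRNAs lower in liver than in all 12 tissues, let-7e-5p was the most abundant of those called in both sets of libraries. It held 630, 957 and 7118 RPM in liver, while the other tissue medians ran from 2458 RPM in spleen to 18599 RPM in brain. Its closest log2 fold change was -1.03 (spleen, adjusted p = 0.000191) and its farthest -3.43 (brain). Without the pools the 15 livers reached 1323 RPM and all 169 other libraries lay above the liver median, with a closest value of -1.50. The call depended on the scaling, since the closest value was -0.62 with TMM factors and 0.73 with the total of all 7 classes, and over all libraries it was not called with the mouse as a block (-0.92). In the TERM mice the value closest to 0 for let-7e-5p was 0.32. Its seed relatives let-7a-5p, let-7f-5p and let-7g-5p were not lower than in any tissue, and let-7c-5p was lower than in 5, most in SCAT (-1.63). let-7b-5p (14975 RPM, lowest other median 19625 RPM), let-7d-5p (12810 RPM, 17447 RPM) and let-7i-5p (5440 RPM, 6860 RPM) had liver medians below those of all 12 tissues, with median log2 fold changes of -1.23, -0.62 and -0.83, but were not called against all 12.

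The miRNAs with the largest distance to the closest tissue were near 0 in liver. miR-1224-5p, miR-3475-3p, miR-138-2-3p and miR-672-3p had liver medians of 0 against 178, 79.5, 35.8 and 7.57 RPM in brain, and miR-760-3p had 0.323 against 243 RPM. Their closest log2 fold changes lay between -1.85 and -2.48 but rest on so few liver counts that their size is uncertain. In the TERM mice the value closest to 0 had the other sign for miR-3475-3p (2.17) and miR-760-3p (0.24). miR-129-2-3p held 0.323, 7.72 and 39.8 RPM in liver and 10652 RPM in brain, but only 10.1 RPM in lung. Its call (-1.89) was lost without the pools (-0.25, adjusted p = 0.619), as was that of miR-1224-5p (-1.52, adjusted p = 0.188). The muscle miRNA miR-133a-3p (206, 484 and 5838 RPM, 266008 RPM in diaphragm) was called over all libraries (-1.54, MAT), where the median of spleen, 435 RPM, was itself below that of liver. Without the pools it was lower than in 8 tissues, with 0.02 against brain. Over all libraries neither miR-133a-3p nor miR-129-2-3p was called with the mouse as a block. The sum of the 7 miRNAs of striated muscle, of which miR-133a-3p was the one called, was 659 RPM in liver and 368943 RPM in diaphragm. Among the liver libraries it ranged from 287 to 12983 RPM, with the same range without the pools, and was 6040 RPM in the library labelled liver VGC 12.

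The Dlk1-Dio3 region is expressed from one parental copy, and its miRNA clusters are known from brain, muscle and placenta. From Dlk1 to the end of Mirg (chr12:109452823-109749460, GRCm38) 100 miRNAs were tested, and 3 were called lower in liver than in all 12 tissues, with none higher, beside 1.46% of all miRNAs called lower. The median log2 fold change of the 100 was -2.56, against -0.61 over all miRNAs, and 99 had a median below 0. Without the pools 3 of 99 were called, which is no larger a share than the 3.37% of all miRNAs, and 94 were below 0 (median -2.53, all miRNAs -0.90). Kidney was low as well, by members of this region in the list of imprinted clusters. The kidney median was below that of liver for miR-379-5p (23.1 against 28.1 RPM), miR-411-5p (25.4 against 38.6 RPM) and miR-541-5p (14.07 against 14.56 RPM). It was above for miR-127-3p (72.3 against 66.7 RPM), miR-434-3p (3.19 against 2.76 RPM) and miR-382-5p (2.43 against 1.43 RPM). miR-323-3p held 0, 0.818 and 6.68 RPM in liver and 966 RPM in brain (closest log2 fold change -1.63 against kidney, adjusted p = 0.00398). miR-667-3p (0.735 RPM, 664 RPM in brain) was called in both sets, while miR-410-3p (0.480 RPM, 230 RPM in brain) was called with the pools (-1.37) and not without them (-0.97), where miR-382-5p was called (-1.01, and -0.95 and not called with the mouse as a block).

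Some host transcripts and snoRNAs of the same region were also called lower over all libraries. The lncRNA Rian had 0.575, 2.73 and 39.6 RPM of lncRNA in liver for transcript ENSMUST00000238433.1, and 516 RPM in brain and 5.23 RPM in spleen (closest log2 fold change -1.77, adjusted p = 0.00504). Both Mirg transcripts called stood at 0.388 RPM in liver and above 200 RPM in brain (-1.23 and -1.18, both against kidney), but not without the pools (-0.96 and -0.89). With the mouse as a block over all libraries the Rian transcript was still called (-1.65) and both Mirg transcripts were not (adjusted p = 0.0570 and 0.0849 by edgeR). The snoRNAs AF357425 (chr12:109636012-109636084, 13.9 RPM of snoRNA against 1659 RPM in brain) and Gm23787 (chr12:109684962-109685034, 0.375 RPM against 25.9 RPM), each listed as a pair of identical rows, made up the 4 snoRNAs called lower. None of the 4 was called without the pools, with the mouse as a block, with TMM factors or by DESeq2. The list fixed for imprinted clusters, 11 miRNAs of this region and of Sfmbt2, had no call over all libraries and 1 lower without the pools, with a median log2 fold change of -2.36. Its sum was 218 RPM in liver, below the medians of all 12 tissues (302 RPM in kidney to 35635 RPM in brain).

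Leaving out the pools brought 30 further miRNAs into the lower group. Those named here were chosen after their values were seen. miR-181a-5p, known from lymphocyte development, held 1739, 2327 and 12558 RPM in the 15 livers and 235174 RPM in the median thymus, and all 169 other libraries lay above the liver median. Its closest log2 fold change was -1.56 (BAT, adjusted p = 1.54e-11) and its farthest -6.18 (thymus), while over all 19 libraries, with the thymus-like VGC 12, the highest liver reached 319570 RPM and the value that decided the call was 0.64 (SCAT). miR-181b-5p followed (224, 327 and 1236 RPM, -1.62 against BAT). miR-10b-5p, from a Hox cluster, held 7.98, 12.1 and 66.7 RPM in the 15 livers and 3521 RPM in kidney (closest -1.58, brain), and 3930 RPM in the highest of the 19. miR-204-5p (1.94, 20.0 and 119 RPM) had a closest value of -2.06 (lung), and miR-125b-5p (48.1, 84.4 and 320 RPM) one of -1.17 (spleen). Cilia-linked miR-34c-3p held 2.33, 4.38 and 46.8 RPM against 1544 RPM in lung. With TMM factors 10 miRNAs were lower without the pools, in place of 43.

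The remaining 6 classes gave few features called in all 12 comparisons. No rRNA (284 tested) and no snRNA (903 tested) was called in either direction by edgeR's quasi-likelihood test or DESeq2, over all libraries or by edgeR without the pools. For lncRNAs, 10 of 5942 were higher (0.168%) and 3 lower (0.0505%), and without the pools 13 of 5536 were higher (0.235%) and 28 lower (0.506%), many of the 28 being transcripts of Rian. With the mouse as a block the counts were 6 higher and 1 lower over all libraries and 6 higher and 29 lower without the pools. With TMM factors they were 28 higher and 1 lower, and 32 higher and 1 lower without the pools. The leading one, Gm29966 (ENSMUST00000235304.1), held 695, 299302 and 454087 RPM of lncRNA in liver, against 1185 RPM in BAT, with a closest log2 fold change of 2.85 (GAT, adjusted p = 6.49e-05). The Mir122 hairpin lies in an exon of it, and in the 16 libraries with over 1% miR-122-5p its counts were 1.00 to 1.01 times the summed miR-122 counts, the difference being 2292 to 6671 counts. The same reads therefore appear in both classes, and they made up 12.2% to 45.4% (median 32.4%) of lncRNA counts. In the same way 6720427I07Rik, second with 93803 RPM, holds Mirlet7a-1, Mirlet7d and Mirlet7f-1 in its exons. The other higher lncRNAs had liver medians between 0.126 and 2.83 RPM. Without the pools Mir181a-1hg, whose exons hold Mir181a-1 and Mir181b-1, was lower (317, 396 and 1329 RPM, 31450 RPM in thymus).

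Of 408 tRNAs none was called over all libraries by edgeR's quasi-likelihood test or by DESeq2, and 3 were higher without the pools (0.735%), of which none passed there with the mouse as a block. None was called either when the 3 livers under 1% miR-122-5p alone were left out. Trp-CCA-3-1 and Trp-CCA-3-2 have identical counts (14.9, 56.1 and 159 RPM of tRNA in the 15 livers, closest log2 fold change 1.10 against spleen, adjusted p = 0.0314), and the other is Phe-GAA-3-1 (6.65, 19.6 and 45.7 RPM, 1.07 against brain). Over all libraries the 3 most abundant tRNAs were the identical rows Glu-CTC-1-1, Glu-CTC-1-2 and Glu-CTC-1-3 at 42506 RPM each, with 67511 RPM in SCAT. By amino acid, Glu held a median of 39.8% of tRNA counts in liver, Gly 22.9% and Val 19.4%. The share of Cys (0.840%) was below the medians of all 12 tissues, and the small shares of Met (0.106%), Trp (0.0460%) and Tyr (0.0435%) were above them. Only 224 of the 408 tRNA rows were distinct, since gene copies with the same reads get the same counts.

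snoRNAs guide the chemical modification of other RNAs. Of 1040, none was higher and 4 were lower (0.385%), the rows of AF357425 and Gm23787, and with the mouse as a block none was lower. Without the pools 2 of 1012 were higher (0.198%) and none lower. Snord118, the U8 RNA needed for ribosomal RNA maturation, held 19257, 28207 and 68565 RPM of snoRNA in the 15 livers and 15784 RPM in pancreas (closest log2 fold change 1.06, adjusted p = 1.14e-05), and Snord104 held 296, 455 and 1143 RPM against 231 RPM in heart (1.18). With the mouse as a block Snord104 was still called (1.11) and Snord118 was not (0.997). Over all 19 libraries they were higher than in 10 and in 11 tissues. The most abundant snoRNA was Gm26109, with 13308, 56689 and 72374 RPM in liver and 33756 RPM in kidney. It was above 7 tissues, and 9 without the pools, with 0.54 against kidney (adjusted p = 0.0493).

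Of 1387 piRNA entries, 1 was higher (0.0721%) and 1 lower (0.0721%), and without the pools 5 of 1232 were higher (0.406%) and 4 lower (0.325%). With the mouse as a block none was called over all libraries. piR-21085 was the one called higher in both sets (0, 2.50 and 12.1 RPM of piRNA, all 12 tissue medians at 0), and a count of 3 in the median liver library is 3.47 RPM. With the mouse as a block piR-21085 was called in neither set. oocyte_piRNA2941 was lower (7.50, 21.9 and 115 RPM, 504 RPM in diaphragm, closest log2 fold change -1.11). The class was dominated by oocyte_piRNA2795 with 127206, 283433 and 438856 RPM in liver, next to 326874 RPM in pancreas, and it was higher than in 6 tissues. The top snRNA rows, Rnu1a1, Gm22068 and Gm25679, were identical U1 rows at 26669 RPM of snRNA, and the top rRNA row was CT010467.1 at 125265 RPM, next to 131769 RPM in brain.

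The classes themselves took other shares of the library in liver than in most tissues. miRNAs held 7.54%, 12.5% and 16.8% of the counts of the 7 classes in the lowest, median and highest liver library, and the tissue medians ran from 2.15% in GAT to 15.9% in heart. Liver was higher than 8 tissues and lower than 2, by permutation tests of the means adjusted over 84 comparisons. tRNA fragments held 5.29%, 8.53% and 35.5% in liver and 76.2% in the median GAT library, and liver was lower than 7 tissues and higher than none. rRNA (median 19.0%) was higher than in 7 and lower than in 3, snRNA (15.4%) higher than in 9 and lower than in 1, and snoRNA (22.0%) higher than in 7 and lower than in 2. piRNA (2.51%) was higher than in 3 and lower than in 5, and lncRNA (13.0%) higher than in 8 and lower than in none. The lncRNA share of liver holds miR-122 reads counted a second time as Gm29966. They made up 12.2% to 45.4% (median 32.4%) of lncRNA counts in the 16 libraries with over 1% miR-122-5p. The class shares were not compared without these reads. Without the pools the counts of tissues were 7 and 2 for miRNA, 0 and 6 for tRNA, 7 and 3 for rRNA, 8 and 2 for snRNA, 6 and 3 for snoRNA, 4 and 5 for piRNA and 8 and 0 for lncRNA.

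**Figure D5:**
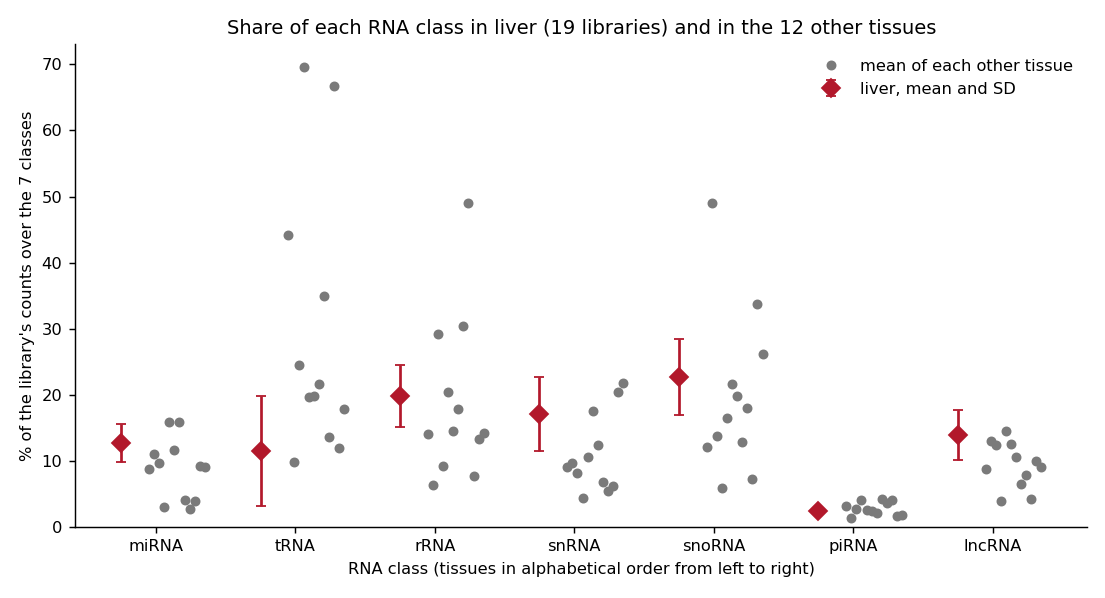
Share of each of the 7 RNA classes in the counts of a library (percent, vertical axis), as mean and SD over the 19 liver libraries (diamonds) and as the mean of each of the 12 other tissues (grey points). The liver mean of tRNA lies in the lower part of the range of tissue means, which adipose tissue extends upwards.

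The miRNA repertoire of liver was concentrated on few species. The effective number of miRNAs, the exponential of the Shannon entropy of their shares, was 16.1, 21.5 and 52.1 in the lowest, median and highest liver library (mean 25.6 ± 9.77, SD, n = 19), and other tissue medians ran from 24.2 in diaphragm to 54.6 in MAT. By permutation tests adjusted over 12 tissues liver was lower than 10 of them, and the difference did not pass for diaphragm (adjusted p = 0.374) and heart (adjusted p = 0.0706). Without the pools the liver mean was 22.6 ± 4.77 (n = 15), and liver was lower than all but diaphragm (adjusted p = 0.638). With both arms of miR-122 left out, the mean rose to 39.7 ± 5.13, which was higher than in BAT, diaphragm and heart, lower than in kidney, MAT and pancreas and did not pass against the other 6. Without the pools (39.2 ± 2.42) it was also lower than in spleen (difference of means -7.74, adjusted p = 2.4e-05).

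Housing and age were compared within liver. By edgeR's quasi-likelihood test none of 827 miRNAs differed between HGC and VGC (85 at an unadjusted p under 0.05, smallest adjusted p = 0.264), nor between 8 and 3 months (145, smallest adjusted p = 0.0789). Without the pools 67 and 51 of 723 had an unadjusted p under 0.05, and none passed. The difference between liver and the mean of the other tissues differed between HGC and VGC for 26 of 1300 miRNAs (3 higher and 23 lower in HGC) and for 0 of 1277 without the pools (78 at an unadjusted p under 0.05). By name, one of the 26 was miR-181a-5p, with a fitted difference of -3.02 on the log2 scale. The thymus-like library, VGC 12, lies in the VGC arm. The medians of miR-122-5p were 366125 RPM in HGC and 296093 RPM in VGC. The first includes HGC 12 at 396 RPM, and the second VGC 12 and VGC 14 at 158 and 141 RPM. Medians by arm were not computed without the pools.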

How the data were processed

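Small RNA was sequenced from 13 tissues of ground control mice. The authors processed the reads with miRMaster on GRCm39. The deposited miRNA values are estimated counts, 0.784% of which have a fraction, and they were rounded here. The other 6 deposited classes hold whole counts, and the authors did not normalise either kind. Reads that match several classes may be counted in each. The 229 columns of flight mice were not used.

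Groups came from the labels. Each class was fitted by itself with edgeR 4.0.16 in R 4.3.3 (limma 3.58.1), with 1 term for each of the 13 tissues, the class total as library size and the quasi-likelihood test of liver against each tissue, adjusted by Benjamini-Hochberg over all features. A feature was tested where 5 reads were reached in 10% of the libraries of a tissue and arm, and called at an adjusted p under 0.05 and a log2 fold change beyond 1 against each of the 12 tissues. A stricter filter asked for 50%, and DESeq2 1.42.0 was an alternative. The fit was tested on simulated counts in which abundant miRNAs were raised in liver. That simulation does not cover scarce or lower miRNAs, libraries that go against their label, or tissues from the same mouse. Class shares and effective numbers were compared by two-sided permutation tests of means with 100000 resamples (smallest p 1e-05; exact for brain) in scipy 1.17.1, pandas 2.3.3, numpy 2.4.6 and Python 3.11.15. Within a tissue the libraries are separate mice as far as the labels tell, while different tissues can come from the same mouse, which the fit without a block does not use. Limits for a count of 0 are 3 counts and cover counting error only, and no interval was computed beyond that.

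Tissues of 1 mouse share its number, which pairs them by design. Deviations from the tissue means had a median correlation of -0.00297 over 187 pairs of a liver and another tissue of the same mouse (50 over 0.1) and -0.00471 over 3898 pairs of different mice (909 over 0.1).

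Named were the 10 miRNAs with the highest liver median (3 features in the other classes), of those called higher the 12 with the largest closest fold change (4) and of those called lower 6 (2), every liver marker, partner arm and member of miR-192/194/215, and the called members of the other lists. Features named beyond these fall outside the rule and were named with their values known. They include uncalled members of the lists, further called features and the miRNAs counted in the Dlk1-Dio3 region. The members, lists and 11 pools were chosen with earlier results of these data known: a pool was left out where more than 1 in 3 of its libraries resembled another tissue, a limit chosen by that earlier analysis with those counts in view. Coordinates and sequences come from RefSeq on GRCm38.p6 and annotation from GENCODE for GRCm38, not from the build of the authors. A sequence was found for 30 of the 37 miRNAs named by the rule, and those of chromosome 18 are not printed.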

Additional observations from a re-analysis of the deposited data

Results flagged for a closer look

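In each arm of liver, Dixon's test was made for the highest and lowest library of every named feature, class share and effective number, 144 times in all. It passed 33 times, and chance flags about 1 in 20 groups. No explanation was tested.

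In HGC, replicate 12, the library most like spleen, was the lowest for miR-192-5p (928.345 RPM, the next at 69163), miR-802-5p (22.9159 RPM), miR-1948-5p (0 RPM) and the snoRNA Gm26109 (16643.9 RPM). It was the highest for let-7f-5p (63833.5 RPM), miR-451a (100834 RPM), let-7g-5p (40097.9 RPM), miR-760-3p (0.996346 RPM), the snoRNA share (38.1208%) and the effective number of miRNAs (48.5618). Among the VGC libraries, replicate 14, the one most like kidney, was the highest for miR-26a-5p (84776.2 RPM), miR-3475-3p (1.49805 RPM), miR-672-3p (2.05981 RPM), let-7e-5p (7117.97 RPM), the lncRNA 6720427I07Rik (183619 RPM) and the effective number (52.1009). Replicate 12, the one most like thymus, was the highest for miR-1224-5p (0.44542 RPM), miR-760-3p (7.57215 RPM), miR-215-3p (1.33626 RPM), oocyte_piRNA2941 (115.444 RPM) and Rian (39.5755 RPM) and the lowest for Gm26109 (13308.1 RPM).

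Libraries that carried the miR-122-5p of liver passed too. VGC 5 was the highest for the 3 identical U1 rows Gm22068, Rnu1a1 and Gm25679 (43334.2 RPM), for piR-21085 (12.1456 RPM) and for Gm36633 (1.73322 RPM), and had the lowest snoRNA share (9.678%). HGC 4 was the highest for miR-133a-3p (5838.37 RPM) and for miR-1224-5p (0.162186 RPM), HGC 2 for miR-138-2-3p (0.24269 RPM), HGC 11 for miR-215-3p (0.87141 RPM) and HGC 5 for oocyte_piRNA2941 (58.841 RPM).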

How the results depend on the processing

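The counts of calls moved with the scaling, the libraries left out and the use of TERM mice, and the cause was not tested. For miRNAs, 19 higher became 30 with TMM factors, 29 with DESeq2, and without the pools 36 with TMM factors and 31 with miR-122 left out of the total. The 19 lower became 8 with TMM factors, 0 with the total of all 7 classes, 9 with miR-122 left out, 8 with DESeq2, 31 by adjusted p alone, 43 without the pools and 10 without the pools with TMM factors. Alternatives chosen after seeing the data left out the 3 livers under 1% miR-122-5p (101 lower), joined the pools to another scaling or to the block, or took the plate as a term. Leaving out 1 liver library at a time gave 16 to 20 higher and 13 to 50 lower, with 50 without VGC 12 and 33 without VGC 14. A similar count did not mean the same miRNAs, since 4 of the 17 lower by the rank-sum test and 5 of the 17 lower in TERM were among the 19, against 13 of 16 and 12 of 15 higher.

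With the mouse as a replicate block the miRNA counts were 20 higher and 19 lower (45 lower without the pools), of which 18 and 14 were among those called without it. let-7e-5p, miR-125a-3p, miR-129-2-3p, miR-133a-3p and miR-483-5p lost the lower call and miR-294-3p the higher one. The blocked counts were 0 snoRNAs lower, 0 piRNAs in either direction, 6 lncRNAs higher and 1 lower, and without the pools 0 tRNAs, 1 snoRNA higher and 0 lower, 4 piRNAs higher and 6 lower, and 6 lncRNAs higher and 29 lower. The block moved no other count over all libraries by more than 1.5 times.

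tRNAs higher (0) were 3 without the pools, with or without TMM factors, but 0 there with the block and 0 without the 3 livers. snoRNAs higher (0) were 3 with TMM factors, with the 7-class total and with DESeq2, 2 without the pools or the 3 livers, 1 in TERM, 6 by adjusted p alone and 4 without the pools with TMM factors. snoRNAs lower (4) were 0 with TMM factors, the 7-class total and DESeq2, without the pools with either scaling and in TERM, and 13 without the 3 livers. piRNAs higher (1) were 3 with TMM factors, 17 with the 7-class total, 0 with the stricter filter, 5 without the pools or the 3 livers, 22 in TERM and 7 without the pools with TMM factors. piRNAs lower (1) were 0 with TMM factors, with the 7-class total and in TERM, 4 without the pools with either scaling and 8 without the 3 livers. lncRNAs higher (10) were 28 with TMM factors, 25 with the 7-class total, 6 with the stricter filter, 91 in TERM and 32 without the pools with TMM factors. lncRNAs lower (3) were 1 with TMM factors, with the 7-class total and without the pools with TMM factors, 5 with the stricter filter, 28 without the pools, 9 in TERM, 56 without the 3 livers and 6 by adjusted p alone. The 26 miRNAs whose liver difference differed between arms became 0 without the pools.

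The log2 fold change closest to 0 changed sign for miR-3475-3p (2.17 in TERM), miR-760-3p (0.24 in TERM), let-7e-5p (0.73 with the 7-class total, 0.32 in TERM), miR-129-2-3p without the pools (0.29 with TMM factors, 0.37 with miR-122 left out) and miR-133a-3p (0.15 by the rank-sum test, 0.0196 without the pools and there 1.09 with TMM factors and 0.63 with miR-122 left out, 2.58 in TERM). Of the other values of single features, 496 kept their direction and side of the threshold, 62 lost the call and 18 gained it, and on leaving out 1 library 654, 47 and 2 did. Depth limits the rare miRNAs, of which 3 counts in the median liver are 0.614 RPM.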
